A study of Mus musculus with 8 samples.

Results

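The 10 genes described here are transcripts that β-catenin signalling is known to drive in the hepatocytes around the central vein of the liver lobule. They are Axin2, Rnf43, Znrf3, Lgr5, Tbx3, Glul, Oat, Slc1a2, Rhbg and Lect2. They were chosen by symbol, as known pericentral or β-catenin target genes, with earlier results of these data known. All 10 were found among the 55487 genes of the count table. In the 8 libraries compared, the members did not move as 1 group. Axin2 and Tbx3 were higher in the libraries labelled Bmal1-/-, Slc1a2 was lower, and 7 members, Glul among them, did not pass the test. Among all tested genes 31.1% passed, 16.2% lower and 14.9% higher, so the members' share was near that background.

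By the paper's account, the libraries were made from RNA of the stromal vascular fraction of MC38 tumors. There were 4 libraries labelled Bmal1+/+ and 4 labelled Bmal1-/-. MC38 is a mouse colorectal cancer line. Its GFP-labelled cells had been placed under the skin of the back in both groups, and the fraction is the cells without GFP that were left after digestion and sorting. Bmal1-/- mice lack the clock transcription factor BMAL1 in the whole body from the germline, and both genotypes were bred from Bmal1+/- founders and kept in alternating light and dark. Strain, age, sex and hour of collection were not given in the sources used here. Nothing says that any animals were pooled, so each library is taken as 1 replicate, and p-values measure the spread between these libraries.

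WNT ligands act on Frizzled receptors and LRP co-receptors and stop the destruction complex, built around AXIN and GSK3, from degrading β-catenin. β-Catenin then enters the nucleus and activates genes together with TCF/LEF factors. R-spondins strengthen the signal by binding LGR receptors and removing the ubiquitin ligases RNF43 and ZNRF3, which would otherwise clear Frizzled from the cell surface. In the liver, endothelial cells of the central vein release WNT2, WNT9B and RSPO3, and the adjoining hepatocytes hold a ring of glutamine synthetase, the enzyme made from Glul.

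Several features of the libraries touch every value below. Bmal1 itself (Arntl) was at 0.960 to 2.71 CPM (counts scaled to library total and TMM factor) in libraries labelled Bmal1+/+ and at 30.1 to 35.0 CPM in those labelled Bmal1-/-, against both labels, so both groups are named by their labels throughout. A gene total cannot show which exons were read. Of 2 further clock genes, named after their values were seen, Dbp, which BMAL1 is known to activate, was at 67.0 to 113 CPM under the Bmal1+/+ label and at 3.73 to 6.97 CPM under the other, in the direction of the labels. Npas2, which can take the place of CLOCK as partner of BMAL1, was at 0.120 to 0.223 CPM under the Bmal1+/+ label. All but replicate 4 of that label lay below the detection floor of 3 counts. Under the other label Npas2 was at 31.2 to 42.2 CPM. The hour of collection was not given, and its part in the values of Bmal1, Dbp and Npas2 was not tested. Hepatocyte transcripts were abundant in a fraction labelled as tumor stroma. Alb, which encodes albumin, was at 64318 to 71872 CPM and at 12744 to 18830 CPM, lower in the libraries labelled Bmal1-/- (log2 fold change -2.10, adjusted p = 6.8e-05 by edgeR), and 18 of 18 other hepatocyte identity genes passed the filter on low counts. Their summed level was 50509 to 54370 CPM in libraries labelled Bmal1+/+ and 60428 to 101304 CPM in the others. This sum leaves out Alb, and its highest value was in replicate 4 labelled Bmal1-/-. Of 9 colorectal epithelium markers, Cdx1 and Cdx2 had 0 counts in every library. Krt20 and Cdh17 had at most 1 count in a library, and Vil1 at most 7. The 4 others, Krt8, Krt18, Lgals4 and Epcam, passed the filter. The 9 together were at 201 to 249 CPM under the Bmal1+/+ label and at 222 to 359 CPM under the other. Most of these sums came from Krt8 (means 146 and 167 CPM) and Krt18 (means 66.4 and 91.4 CPM). Since GFP-labelled tumor cells had been sorted out by the paper's account, these colorectal markers alone do not show which tissue was sequenced. Fap, by which the paper sorted tumor fibroblasts, had at most 7 counts in any library. Tumor stroma is therefore the name given by the labels only, and the tissue of origin was not tested. Xist was at 844 to 1095 CPM in libraries labelled Bmal1+/+ and 4 Y-linked genes together had 0 counts there, against 1785 to 2292 counts in the libraries labelled Bmal1-/-. Sex and label therefore cannot be told apart. Library totals were 14054825 to 18449143 counts, where 3 counts, taken as the detection floor, equal 0.163 to 0.213 CPM, which covers counting error only. Replicate 4 labelled Bmal1-/- stood apart in acute-phase transcripts, with Fga, which encodes a fibrinogen chain, at 14307 CPM against 4677 to 5715 CPM in the other 3 of its group. In these bulk libraries fewer cells of a type and less RNA per cell cannot be told apart.

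Per transcript length, the members fell into an abundant and a scarce set. On the FPKM scale as deposited, Oat had the highest level, with 529 ± 40.4 (SD, n = 4) in libraries labelled Bmal1+/+ and 507 ± 104 (SD, n = 4) in those labelled Bmal1-/-. Glul followed with 186 ± 14.5 and 195 ± 29.6 FPKM, and Lect2 with 104 ± 8.81 and 90.5 ± 23.9 FPKM. These are the secreted or metabolic products of pericentral hepatocytes, and their order was the same in both groups. Slc1a2 (17.1 ± 2.85 against 8.62 ± 1.40 FPKM) and Rhbg (7.90 ± 1.39 against 6.13 ± 0.596 FPKM) lay in between. The regulators were scarce, with Znrf3 at 1.27 and 1.37, Rnf43 at 0.898 and 1.21, Tbx3 at 0.859 and 1.93, Lgr5 at 0.714 and 0.522 and Axin2 at 0.445 and 1.43 FPKM. In libraries labelled Bmal1+/+ the ranges of Znrf3, Rnf43, Tbx3 and Lgr5 overlapped, so no order among them is read from the means. Axin2 had the lowest mean of the 10 in libraries labelled Bmal1+/+, and its range there overlapped that of Lgr5. In the other group its mean was above those of Znrf3, Rnf43 and Lgr5, again with overlapping ranges for Znrf3 and Rnf43.

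**Figure D1:**
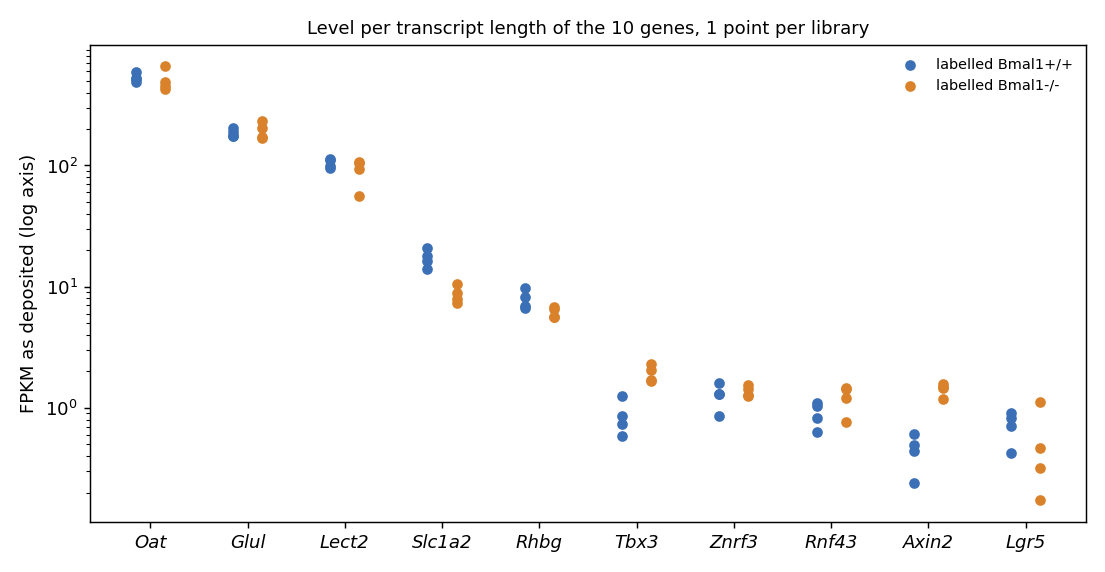
FPKM as deposited (log axis) of each of the 10 genes, ordered by mean level, with 1 point per library, blue for libraries labelled Bmal1+/+ and orange for libraries labelled Bmal1-/-. Oat, Glul and Lect2 lie far above the 5 regulators, and the colours separate for Axin2, Tbx3 and Slc1a2.

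The comparison of the 2 labels asked how stromal transcripts differ when the host lacks BMAL1. Of the 10 members, all of which passed the filter on low counts, 3 were called at an adjusted p below 0.05 (quasi-likelihood test of edgeR, Benjamini-Hochberg adjustment over 14353 genes). Among all tested genes 31.1% were called, so the members' share is near the background. By direction, 1 member was lower (background 16.2%) and 2 were higher (background 14.9%). The study's own rule asks for a log2 fold change beyond 1 in either direction and an unadjusted p below 0.05. The same 3 members passed it, 1 lower and 2 higher, as did 14.1% of tested genes, 8.71% lower and 5.41% higher. They were also the members whose groups did not overlap in CPM, which held for 33.4% of tested genes, 16.8% lower and 16.7% higher. The median log2 fold change was -0.022 over the members and 0.022 over all tested genes, whose middle range ran from -0.36 to 0.34.

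**Figure D2:**
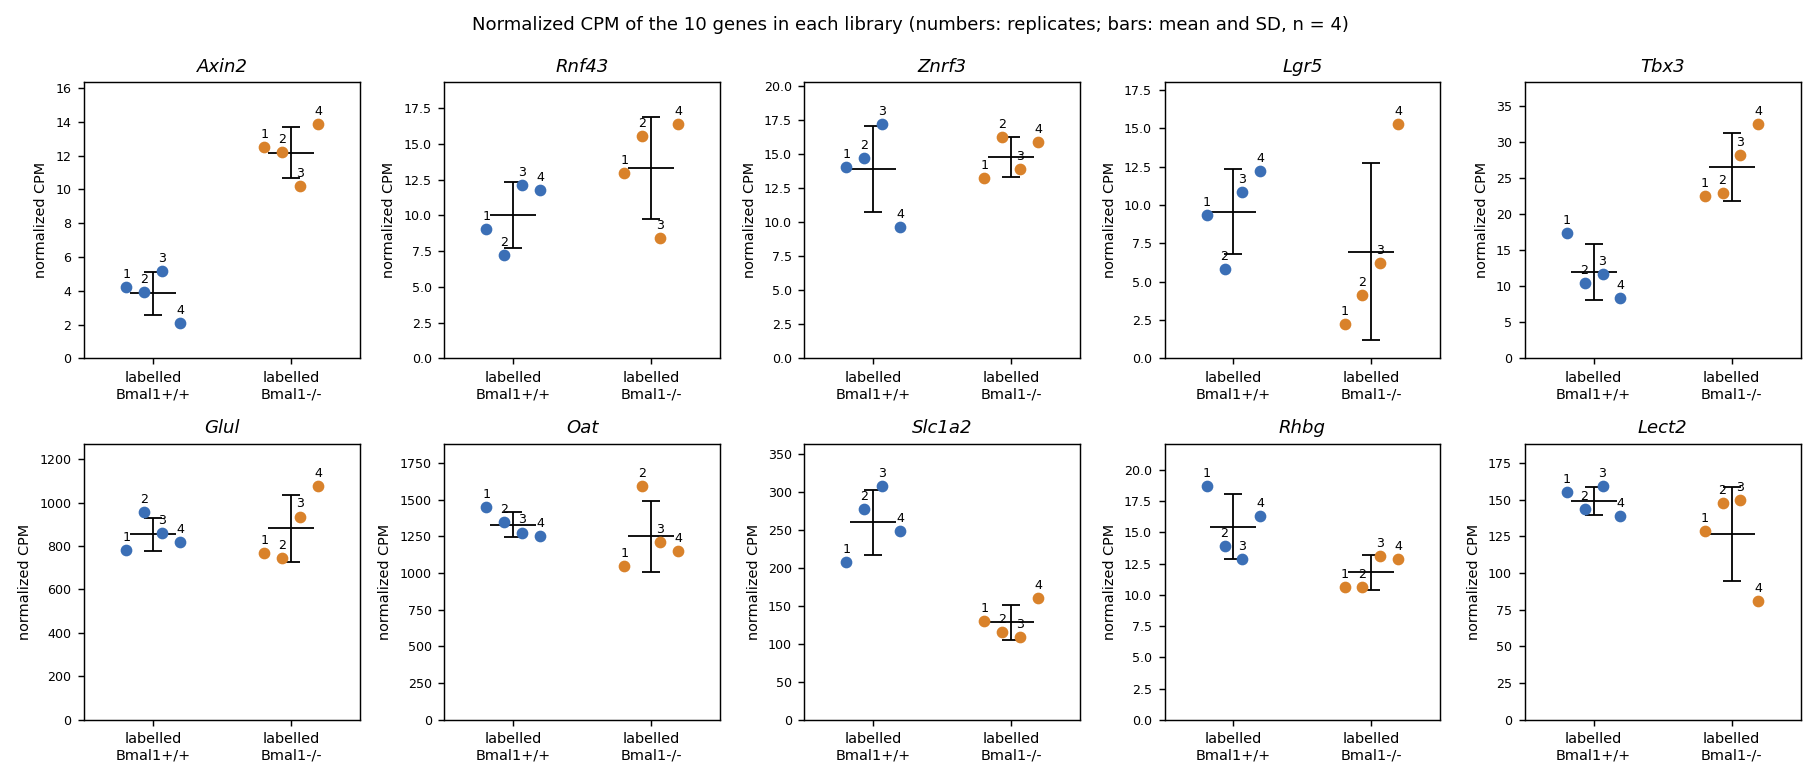
Normalized CPM (linear axes from 0) of each of the 10 genes in the 4 libraries labelled Bmal1+/+ (blue) and the 4 labelled Bmal1-/- (orange); digits are replicate numbers, and black bars give mean and SD. The groups separate for Axin2 and Tbx3 (higher) and for Slc1a2 (lower), and replicate 4 is the highest library labelled Bmal1-/- for 6 members.

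The feedback inhibitors were examined first. AXIN2 is the scaffold protein of the destruction complex that WNT signalling itself induces, and its transcript is a common readout of the pathway. Axin2 (ENSMUSG00000000142, GRCm38 chr11:108920349-108950783, plus strand) was at 4.21, 3.91, 5.17 and 2.12 CPM in replicates 1 to 4 labelled Bmal1+/+. It was at 12.5, 12.2, 10.2 and 13.8 CPM in replicates 1 to 4 labelled Bmal1-/-. Each of the latter 4 lay above each of the former, and the lowest value under the Bmal1+/+ label, in replicate 4, was still above the floor. The means were 3.85 ± 1.28 and 12.2 ± 1.51 CPM (SD, n = 4 each), a log2 fold change of 1.67 (standard error 0.24, 95% interval 1.13 to 2.20, adjusted p = 0.00088 by edgeR's quasi-likelihood test). Without replicate 4 labelled Bmal1-/- it was 1.60 (adjusted p = 0.0017 by edgeR).

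RNF43 and ZNRF3 are the paired ligases that remove Frizzled receptors, and β-catenin induces both. Rnf43 (GRCm38 chr11:87662722-87735539, plus strand) was at 9.03, 7.23, 12.1 and 11.7 CPM in libraries labelled Bmal1+/+ and at 12.9, 15.5, 8.40 and 16.3 CPM in those labelled Bmal1-/-. Replicate 3 of the second group lay within the range of the first, so the groups overlapped. The log2 fold change was 0.41 (standard error 0.23, 95% interval -0.11 to 0.93, adjusted p = 0.21 by the same edgeR test). Znrf3 (GRCm38 chr11:5276324-5444847, minus strand) was at 14.1, 14.7, 17.2 and 9.63 CPM against 13.2, 16.3, 13.9 and 15.9 CPM. All 4 libraries labelled Bmal1-/- fell inside the range of those labelled Bmal1+/+, and the log2 fold change was 0.094 (95% interval -0.29 to 0.48, adjusted p = 0.71 by edgeR). The upper bounds for both ligases lie below the lower bound for Axin2. The difference between these fold changes was not tested.

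LGR5 is a receptor for R-spondins and marks stem cells in several epithelia and pericentral hepatocytes in the liver. Lgr5 (GRCm38 chr10:115450311-115587780, minus strand) was at 9.33, 5.83, 10.9 and 12.2 CPM in libraries labelled Bmal1+/+. In the libraries labelled Bmal1-/- it was at 2.25, 4.16, 6.19 and 15.3 CPM. Replicates 1 and 2 of that group were lower than every library labelled Bmal1+/+, whereas replicate 4 was higher than all of them. The coefficient of variation in that group, 82.7%, was the highest of any member in either group. The log2 fold change was -0.46 (standard error 0.49, 95% interval -1.56 to 0.64, adjusted p = 0.51 by edgeR's quasi-likelihood test). Without replicate 4 labelled Bmal1-/- the log2 fold change was -1.19 with an adjusted p of 0.029 by the same test, so 1 library decides whether Lgr5 is called.

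TBX3 is a T-box transcription factor that β-catenin induces in liver. Tbx3 (ENSMUSG00000018604, GRCm38 chr5:119670669-119684724, plus strand) was at 17.4, 10.5, 11.8 and 8.35 CPM in libraries labelled Bmal1+/+ and at 22.6, 23.0, 28.3 and 32.5 CPM in those labelled Bmal1-/-. The groups did not overlap, and replicate 1 labelled Bmal1+/+ came nearest to the other group. The means were 12.0 ± 3.86 and 26.6 ± 4.71 CPM (SD, n = 4 each), a log2 fold change of 1.15 (standard error 0.22, 95% interval 0.66 to 1.64, adjusted p = 0.0038 by edgeR). Without replicate 4 labelled Bmal1-/- it was 1.04 (adjusted p = 0.0075 by edgeR). An antisense gene, Tbx3os1, overlaps Tbx3 and held 42 to 78 counts in libraries labelled Bmal1+/+ and 27 to 72 counts in the others. Tbx3os1 runs from 119570130 to 119671365 and so shares only the first part of Tbx3. Whether the counting used strand was not given in the sources used here, so reads in the shared stretch cannot be told apart.

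The next 4 members handle glutamate and ammonium. Glul encodes glutamine synthetase, which joins ammonium to glutamate. Glul (ENSMUSG00000026473, GRCm38 chr1:153899944-153909723, plus strand) was at 784, 958, 861 and 817 CPM in libraries labelled Bmal1+/+ and at 770, 747, 936 and 1077 CPM in those labelled Bmal1-/-. The second group reached both below and above the first. The log2 fold change was 0.046 (standard error 0.15, 95% interval -0.29 to 0.39, adjusted p = 0.84 by edgeR), an interval well inside the study's limit of 1 on either side. The gene Mir8114, which overlaps Glul, held 154 to 263 counts in every library and Teddm2 held 22 to 47, a small number beside the counts of Glul.

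Oat encodes ornithine aminotransferase, a mitochondrial enzyme that turns ornithine into a precursor of glutamate. Oat (GRCm38 chr7:132557478-132576398, minus strand) was at 1447, 1345, 1276 and 1252 CPM against 1045, 1594, 1210 and 1146 CPM. Replicate 2 labelled Bmal1-/- was the highest of all 8 libraries and the other 3 of its group were lower than every library labelled Bmal1+/+. The log2 fold change was -0.091 (standard error 0.16, 95% interval -0.44 to 0.26, adjusted p = 0.69 by edgeR). The annotated span of Fgfr2, with 355 to 488 counts in libraries labelled Bmal1+/+ and 186 to 285 in the others, overlaps Oat, so a small share of reads is uncertain.

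Rhbg encodes a membrane channel for ammonia. Rhbg (GRCm38 chr3:88242874-88254709, minus strand) was at 18.7, 13.9, 12.9 and 16.3 CPM in libraries labelled Bmal1+/+ and at 10.6, 10.6, 13.1 and 12.9 CPM in those labelled Bmal1-/-. The groups overlapped narrowly, since the lowest value under the Bmal1+/+ label, in replicate 3, lay just below replicate 3 of the other group. The log2 fold change was -0.39 (standard error 0.15, 95% interval -0.72 to -0.058), and the adjusted p was 0.073 by edgeR, above the threshold of 0.05.

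Slc1a2 encodes the glutamate transporter also called GLT-1 or EAAT2. Slc1a2 (ENSMUSG00000005089, GRCm38 chr2:102658659-102790784, plus strand) was at 208, 277, 309 and 249 CPM in libraries labelled Bmal1+/+ and at 131, 115, 109 and 161 CPM in those labelled Bmal1-/-. Every library of the second group lay below every library of the first. The means were 261 ± 42.9 and 129 ± 23.1 CPM (SD, n = 4 each), a log2 fold change of -1.02 (standard error 0.16, 95% interval -1.38 to -0.65, adjusted p = 0.0015 by edgeR). Without replicate 4 labelled Bmal1-/- it was -1.14 (adjusted p = 0.00057 by edgeR). Slc1a2 was the only one of the 4 glutamate and ammonium genes that passed the test.

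Lect2 encodes a protein that hepatocytes secrete into the blood. Lect2 (GRCm38 chr13:56542464-56548502, minus strand) was at 155, 144, 159 and 138 CPM against 128, 148, 150 and 81.1 CPM. It was the only member for which replicate 4 labelled Bmal1-/- was the lowest of its group. The log2 fold change was -0.23 (standard error 0.18, 95% interval -0.63 to 0.17, adjusted p = 0.35 by edgeR).

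**Figure D3:**
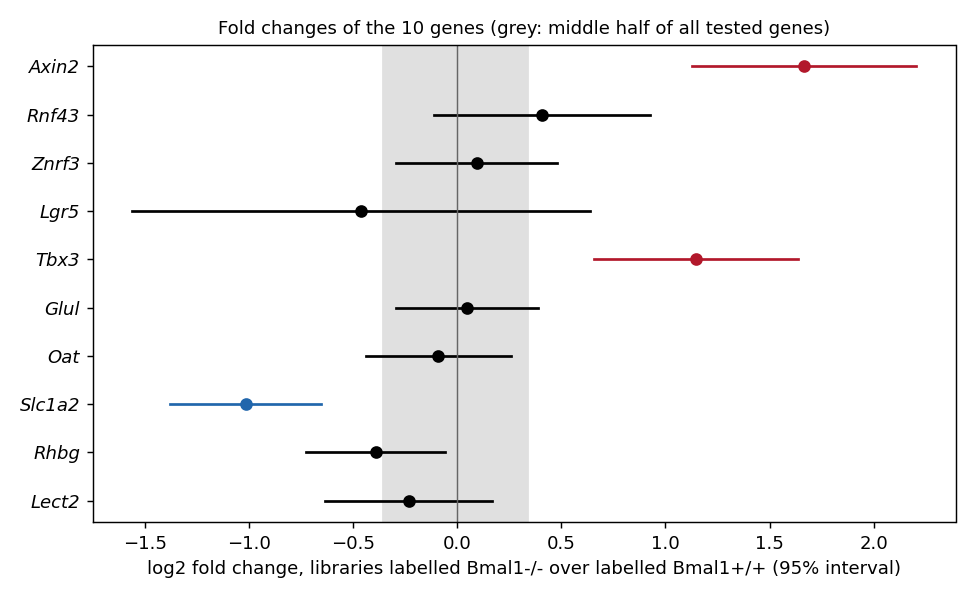
Log2 fold change (x axis, libraries labelled Bmal1-/- over those labelled Bmal1+/+) with its 95% interval for each of the 10 genes; red and blue mark an adjusted p below 0.05 and higher or lower, and the grey band is the range between the quartiles of all tested genes, -0.36 to 0.34. Only the intervals of Axin2, Tbx3, Slc1a2 and Rhbg leave out 0, and that of Rhbg did not survive adjustment.

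The ratio between members within a library does not depend on how libraries are scaled. Per 1000 counts of Glul, Axin2 had 5.38, 4.08, 6.01 and 2.59 counts in libraries labelled Bmal1+/+ and 16.2, 16.3, 10.9 and 12.8 counts in those labelled Bmal1-/-. Tbx3 had 22.2, 11.0, 13.7 and 10.2 counts per 1000 of Glul against 29.4, 30.8, 30.2 and 30.2. Slc1a2 had 265, 290, 359 and 305 against 170, 154, 117 and 149. For these 3 members the groups stayed apart on this scale too. The tight Tbx3 ratios in the second group came from Tbx3 and Glul both being higher in replicates 3 and 4 than in replicates 1 and 2.

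The bases just upstream of the start are shown for 2 members that were called and 2 that were not, since the members are known targets of TCF/LEF factors and the groups differ by a label for BMAL1. Start sites and sequences are from RefSeq on GRCm38.p6, whose promoter table held 6 of the 10 members with 7 promoters. The windows hold the 250 bases before the start, 5′ to 3′ on the strand of the gene, and capitals mark ATCAAAG, the reverse complement of the TCF/LEF core CTTTGAT. The Slc1a2 window, chr2:102706188-102706437 on the plus strand, lies inside the longer span annotated for the gene. The others are Lect2 at chr13:56548539-56548788 on the minus strand, Axin2 at chr11:108920099-108920348 on the plus strand and Glul at chr1:153899679-153899928 on the plus strand.
Slc1a2: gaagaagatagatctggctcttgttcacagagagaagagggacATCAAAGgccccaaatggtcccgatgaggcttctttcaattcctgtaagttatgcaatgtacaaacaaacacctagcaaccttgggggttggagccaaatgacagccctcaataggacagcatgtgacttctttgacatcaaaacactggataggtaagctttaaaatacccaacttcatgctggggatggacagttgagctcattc
Lect2: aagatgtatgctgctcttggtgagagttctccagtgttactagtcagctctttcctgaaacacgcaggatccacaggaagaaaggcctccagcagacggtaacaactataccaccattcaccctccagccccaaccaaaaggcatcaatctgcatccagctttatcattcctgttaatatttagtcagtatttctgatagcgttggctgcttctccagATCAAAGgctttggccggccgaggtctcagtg
Axin2: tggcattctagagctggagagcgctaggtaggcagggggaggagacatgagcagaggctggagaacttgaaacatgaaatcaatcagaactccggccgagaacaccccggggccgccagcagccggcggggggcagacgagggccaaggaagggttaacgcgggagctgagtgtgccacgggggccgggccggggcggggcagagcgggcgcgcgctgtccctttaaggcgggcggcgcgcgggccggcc
Glul: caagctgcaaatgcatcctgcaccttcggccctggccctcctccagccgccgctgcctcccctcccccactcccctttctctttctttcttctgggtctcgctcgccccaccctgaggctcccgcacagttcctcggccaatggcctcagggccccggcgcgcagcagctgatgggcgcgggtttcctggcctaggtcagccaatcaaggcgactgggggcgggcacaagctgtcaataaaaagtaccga

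The match began 207 bases before the start in Slc1a2 and 32 bases before it in Lect2. Of the 6 members with a window, these 2 held CTTTGAT on either strand, 1 called lower and 1 not called. The motif was in 3.21% of all 32851 promoter windows of the same length. The related CTTTGAA (in 4.46% of windows) and the E-box CACGTG to which CLOCK and BMAL1 are known to bind (in 6.02%) were in none of the members' windows. Both strands were searched, and CTTTGAT and CTTTGAA share their first 6 letters. A match describes letters only, and the windows do not reach the distal or intronic enhancers at which these genes are also known to be regulated.

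The rest of the pathway was read from lists of its parts. Among all tested genes 16.2% were lower and 14.9% higher, which is the background for every list below. No list was tested as a set. Of 25 WNT ligands, R-spondins and factors for WNT secretion, 9 passed the filter on low counts, 3 were lower and 1 was higher, with a median log2 fold change of -0.22. The ligands that the central vein is known for were scarce. Wnt2 was at 4.53 ± 0.871 and 3.90 ± 0.347 CPM (SD, n = 4 each; log2 fold change -0.22, adjusted p = 0.41 by edgeR). Wnt9b was at 1.07 ± 0.460 and 0.931 ± 0.250 CPM (log2 fold change -0.21, adjusted p = 0.70), and Rspo3 at 3.14 ± 0.198 and 3.71 ± 1.32 CPM (log2 fold change 0.24, adjusted p = 0.55). None of the 3 passed the test. Factors that WNTs need to leave the cell were lower. Porcn, the acyltransferase that adds a lipid to WNTs, was at 3.85 ± 0.937 against 1.70 ± 0.624 CPM (log2 fold change -1.17, adjusted p = 0.014 by edgeR). Wls, the carrier that brings WNTs to the surface, was at 7.95 ± 0.800 against 4.28 ± 0.922 CPM (log2 fold change -0.89, adjusted p = 0.0051 by edgeR). Wnt5b was lower as well (-0.98, adjusted p = 0.0032), whereas Wnt5a was higher (0.88, adjusted p = 0.022) from a mean of 0.985 CPM and lost its call under 5 of 18 alternatives.

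Endothelial, stromal and macrophage markers moved in the same libraries, beside a background of 16.2% lower and 14.9% higher among all tested genes. Of 12 endothelial markers 7 were lower and 0 higher (median -0.44), and their summed level was 400 to 457 CPM in libraries labelled Bmal1+/+ and 285 to 370 CPM in the others. Of 12 fibroblast and stellate markers 11 were tested and 5 were lower (median -0.70), with sums of 216 to 320 against 148 to 179 CPM. Of 10 macrophage markers 8 were lower (median -1.07), with sums of 650 to 788 against 293 to 599 CPM. In these 3 lists 0 markers were higher, the sums did not overlap between groups, and 0 markers were without counts in all libraries. Their part in the lower values of Porcn, Wls, Wnt5b and Slc1a2 was not tested.

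Among 17 receptors and co-receptors, 11 passed the filter, 1 was lower and 2 were higher (median log2 fold change -0.094). Lrp5, one of the paired LRP co-receptors, was at 57.5 ± 6.94 CPM in libraries labelled Bmal1+/+ and at 173 ± 23.2 CPM in the others (SD, n = 4 each; log2 fold change 1.59, standard error 0.14, adjusted p = 3.7e-05 by edgeR). Its groups did not overlap. The receptor Fzd4 was lower (-0.76, standard error 0.17, adjusted p = 0.0074) and Fzd6 was higher (0.66, standard error 0.18, adjusted p = 0.020), the latter losing its call under 4 of 18 alternatives. Lgr4, an R-spondin receptor that hepatocytes are known to carry, was at 80.3 ± 6.43 and 75.2 ± 15.6 CPM and did not pass (log2 fold change -0.094, adjusted p = 0.66 by edgeR).

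Of 14 secreted inhibitors 3 passed the filter, and only Dkk3 was called, higher at 6.14 ± 1.64 against 2.91 ± 0.863 CPM (log2 fold change 1.08, adjusted p = 0.015 by edgeR), a call lost under 1 of 18 alternatives. Of 25 genes of the destruction complex and its nuclear partners 23 were tested, 1 was lower (Csnk1e, a casein kinase, -0.52, adjusted p = 0.015) and 1 higher (Bcl9, a β-catenin co-activator, 0.63, adjusted p = 0.033), with a median of -0.035. The Bcl9 call was lost under 9 of 18 alternatives. Ctnnb1, which encodes β-catenin, was at 215 ± 73.0 and 173 ± 31.7 CPM (log2 fold change -0.31, 95% interval -0.88 to 0.26, adjusted p = 0.39). Tcf7l2, its main DNA-binding partner in liver, was at 9.79 ± 2.14 and 8.91 ± 1.76 CPM (log2 fold change -0.13, adjusted p = 0.63).

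Other genes known as β-catenin targets in various tissues were read next. Of 8 such genes 6 were tested, 4 were lower and 1 was higher, with a median log2 fold change of -1.38. The background was 16.2% lower and 14.9% higher. Ccnd1, which encodes cyclin D1, was at 154 ± 14.9 CPM in libraries labelled Bmal1+/+ and at 7.62 ± 2.27 CPM in the others (SD, n = 4 each; log2 fold change -4.34, standard error 0.22, adjusted p = 1.8e-06 by edgeR). Tnfrsf19 (-2.92, adjusted p = 6.2e-05) and Cd44, an adhesion receptor that leukocytes also carry (-1.58, adjusted p = 0.0064), were lower. Nkd1, a WNT feedback inhibitor named after its values were seen, was lower too (-1.18, standard error 0.21, adjusted p = 0.0027). Sp5, a transcription factor gene that responds directly to β-catenin, was higher at 2.68 ± 0.623 against 1.04 ± 0.271 CPM (log2 fold change 1.37, standard error 0.27, adjusted p = 0.0046).

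**Figure D4:**
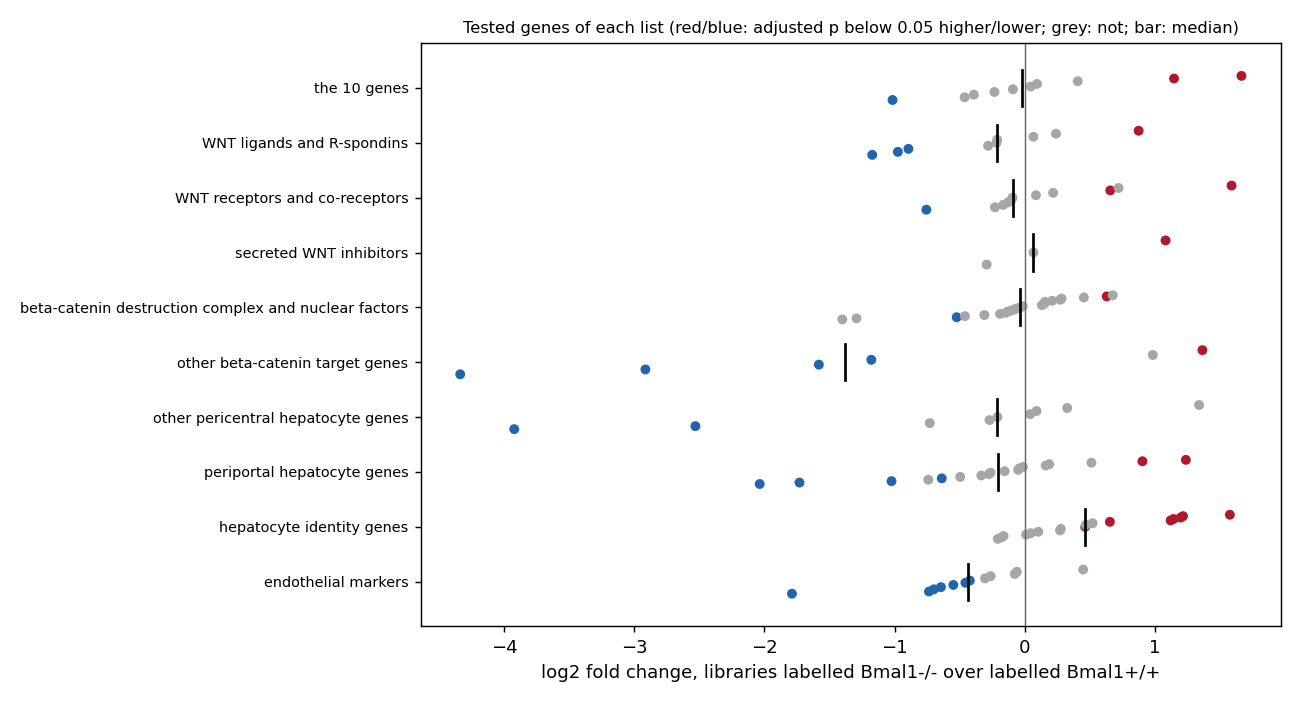
Log2 fold change (x axis, libraries labelled Bmal1-/- over those labelled Bmal1+/+) of every tested gene in the 10 genes described here, the lists of WNT pathway parts, the zonated hepatocyte lists, hepatocyte identity genes and endothelial markers; red and blue mark an adjusted p below 0.05, grey the rest, and black bars the medians. The members spread to both sides of 0, the endothelial markers lie mostly below it and the hepatocyte identity genes mostly above it. The hepatocyte identity list leaves out Alb.

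Of 9 other genes of the pericentral zone all were tested, 2 were lower and 0 higher, with a median of -0.21, beside a background of 16.2% lower among all tested genes. Cyp2a5, a xenobiotic cytochrome P450, was at 1838 ± 187 CPM against 121 ± 49.9 CPM (SD, n = 4 each; log2 fold change -3.92, standard error 0.34, adjusted p = 3.9e-05 by edgeR). Cyp7a1, the rate-limiting enzyme of bile acid synthesis, was at 389 ± 29.7 against 67.4 ± 28.7 CPM (log2 fold change -2.53, adjusted p = 0.00011). Cyp2e1, an abundant pericentral P450, was at 5716 ± 931 and 6084 ± 1253 CPM and did not pass (log2 fold change 0.090, adjusted p = 0.76). On the periportal side, where WNT signalling is low, 18 of 18 genes were tested, 4 were lower and 2 were higher, with a median of -0.21. Aldh1b1 (-2.04, adjusted p = 0.00029), Ctsc (-1.73, adjusted p = 0.0052) and the urea cycle gene Asl (-1.02, adjusted p = 0.0062) were lower, while Cdh1, which encodes E-cadherin (1.24, adjusted p = 0.0016), and Sdsl (0.90, adjusted p = 0.0035) were higher. Sdsl lost its call under 1 of 18 alternatives. In replicate 4 labelled Bmal1-/-, Ctsc was at 71.6 CPM, against 22.8 to 30.9 CPM in the rest of its group. The macrophage marker Vsig4 was also highest there, at 39.3 CPM against 14.8 to 18.8 CPM. The part of macrophages in the Ctsc values was not tested. Both zone lists thus had the same median to 2 decimals, and whether the zones differ was not tested.

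How the libraries are scaled bears on the direction of small differences. Of 18 hepatocyte identity genes 7 were higher and 0 lower (median 0.47), with Apoa1 (log2 fold change 1.58, adjusted p = 0.0011 by edgeR), Cp (1.22, adjusted p = 0.0082) and Fga (1.20, adjusted p = 0.026) among them, the last losing its call under 5 of 18 alternatives. The background was 14.9% higher and 16.2% lower. Fgb and Fgg, called higher too, were at 12463 and 11657 CPM in replicate 4 labelled Bmal1-/-. The rest of that group was at 4178 to 5124 CPM for Fgb and at 3561 to 4651 CPM for Fgg. Cp, Fga and Plg were likewise highest of their group in that replicate, whereas Apoa1 and Apoh were lowest there. The list leaves out Alb, which was lower as given above. Under size factors taken from those 18 genes, the median of all tested genes moved by -0.43 and the members' median was -0.47. The split of calls over all genes then was 5476 lower and 636 higher, against 2322 lower and 2135 higher with TMM. On that scale Axin2, Tbx3 and Slc1a2 kept their direction and their calls, while Rhbg and Lect2 became called lower (adjusted p = 0.0027 and 0.040). Over all 18 alternatives the log2 fold change ranged from 1.24 to 1.84 for Axin2, from 0.69 to 1.38 for Tbx3 and from -1.46 to -0.93 for Slc1a2, with adjusted p of at most 0.0064, 0.018 and 0.0085.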

How the data were processed

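RNA of 8 libraries, 4 labelled Bmal1+/+ and 4 labelled Bmal1-/-, was grouped by genotype label. The library titled KO6 is replicate 4 in its description. The authors aligned reads to GRCm38 with HISAT2, counted them per gene with StringTie and deposited whole-number counts and FPKM. The submitters' notes also list CASAVA 1.8 and TopHat2 2.0.6. The strand setting was not given in the sources used here.

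Counts were analysed in R 4.3.3 with edgeR 4.0.16: filterByExpr (14353 of 55487 genes kept), TMM, quasi-likelihood test, prior count 0.125, Benjamini-Hochberg adjustment over all tested genes, threshold 0.05. Deposited FPKM served only to compare levels between genes. Symbols and coordinates came from GENCODE for GRCm38 (99.4% of identifiers matched), and promoters from RefSeq. No 2 libraries agreed within sampling noise. Alternatives used DESeq2 1.42.0, limma-voom 3.58.1, other scalings, filters and prior counts, each library left out, and a replicate block. Figures used Python 3.11.15 and matplotlib 3.10.9. The members and lists were chosen with earlier results of these data known. Named genes are the 10 members, 7 genes set by name (Wnt2, Wnt9b, Rspo3, Ctnnb1, Tcf7l2, Lgr4, Cyp2e1), and at most 3 lowest and 3 highest called genes of each other list. Library checks used Bmal1, Alb, Xist and Y-linked genes. For 1 named gene no result is reported here.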

Additional observations from a re-analysis of the deposited data

Results flagged for a closer look

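In 118 groups of 4 libraries (59 named genes, both labels) the highest or lowest library was compared with the other 3 by Dixon's ratio at its 95% critical value. If groups were independent, chance would flag about 1 in 20, or 5.9 of 118. Many of the 59 genes were named for their calls in the same libraries, so the flags were not read against chance. Past the critical value were 10 groups, 0 of them in the 10 members. Of the 10 flagged groups, 5 were high values in replicate 4 labelled Bmal1-/-. These were Cp at 2883 CPM (the other 3 at 1308 to 1321), Fga at 14307 CPM (4677 to 5715), Ctsc at 71.6 CPM (22.8 to 30.9), Vsig4 at 39.3 CPM (14.8 to 18.8) and Cd44 at 11.5 CPM (3.53 to 4.62). In replicate 2 labelled Bmal1+/+, Porcn was at 5.25 CPM (3.34 to 3.43), Thbd at 18.7 CPM (9.15 to 10.7) and Krt19 at 5.70 CPM (1.20 to 1.22). Rspo3 was low in replicate 2 labelled Bmal1-/-, at 1.73 CPM (4.20 to 4.48). Npas2 was at 0.223 CPM, or 4 counts, in replicate 4 labelled Bmal1+/+ (0.120 to 0.134, or 2 counts each).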

How the results depend on the processing

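Of the 10 members, Axin2, Tbx3 and Slc1a2 kept direction and call under 18 of 18 alternatives. Size factors from hepatocyte genes gave 3 members lower, 5476 genes lower and 636 higher, and reversed Glul (-0.41), Rnf43 (-0.033), Znrf3 (-0.34), Rspo3 (-0.21) and Cyp2e1 (-0.32, all log2 fold changes), by construction relative to that list. They also brought Rhbg, Lect2, Wnt2, Ctnnb1 and Lgr4 to a call as lower. Leaving out 1 library gave 1 to 2 members lower and 2 higher, the second lower member being Lgr5 without replicate 4 labelled Bmal1-/-. It gave ranges across 0 for Glul (-0.061 to 0.12, negative without replicate 4 labelled Bmal1-/-), Znrf3 (-0.058 to 0.21, negative without replicate 4 labelled Bmal1+/+), Tcf7l2 (-0.28 to 0.025, positive without replicate 2 labelled Bmal1+/+) and Cyp2e1 (-0.022 to 0.23, negative without replicate 3 labelled Bmal1-/-), and none of these 4 was called. Of 42 other named genes that were called, 34 kept the call under every alternative in which they were tested and 8 lost it under at least 1 (Wnt5a, Fzd6, Dkk3, Bcl9, Sdsl, Fga, Krt19 and Epcam); the cause was not tested.

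With the replicate number as a block, 1 member was lower and 2 were higher, and 2064 genes were lower and 1809 higher over all genes. Same-numbered libraries did not deviate together (r across genes -0.11, 0.057, 0.031 and 0.029), and 1 library labelled Bmal1+/+ and 1 labelled Bmal1-/- correlated best with their own number. Tnfrsf19, Npas2, Wnt9b, Krt19 and Epcam did not reach 10 counts in every library and were not tested under that filter. Wnt9b, with 7 to 27 counts a library, had the widest interval of the 7 genes set by name, -1.05 to 0.62. Fold changes within that interval are not excluded, and the part of depth in its width was not tested.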

Other observations

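Transcripts of biliary cells, which adjoin the periportal hepatocytes, split by gene. Sox9, a transcription factor of bile duct cells, was at 2.28 ± 0.924 CPM in libraries labelled Bmal1+/+ and at 13.1 ± 2.14 CPM in those labelled Bmal1-/- (SD, n = 4 each; log2 fold change 2.52, standard error 0.26, adjusted p = 0.00013 by edgeR's quasi-likelihood test). Krt19, a keratin of duct cells, was at 2.33 ± 2.24 against 0.509 ± 0.104 CPM (log2 fold change -2.18, adjusted p = 0.022), with replicate 2 labelled Bmal1+/+ far above the rest and the call lost under 2 of 17 alternatives. Epcam, also counted among 9 colorectal epithelium markers of which 4 were tested, was the only one called there and lay just under the threshold (log2 fold change -1.31, adjusted p = 0.050), and its call was lost under 10 of 17 alternatives.

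Among the non-parenchymal lists, the markers with the largest called decreases were Thbd (-1.79, adjusted p = 0.0050), Cdh5 (-0.74, adjusted p = 0.0050) and Tek (-0.70, adjusted p = 0.016) for endothelium. For fibroblasts and stellate cells they were Lrat, whose enzyme makes the storage form of vitamin A (-1.11, adjusted p = 0.0033), Lum (-0.99, adjusted p = 0.011) and Col3a1 (-0.98, adjusted p = 0.0023). For macrophages they were Timd4 (-1.48, adjusted p = 0.0055), Adgre1 (-1.31, adjusted p = 0.0014) and Vsig4 (-1.27, adjusted p = 0.013), all by edgeR and on the log2 scale. Of 7 T cell markers 2 were tested and neither was called by edgeR.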
